A study of Mus musculus with 9 samples.

Results

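The baseline messenger RNA of mouse gastrocnemius muscle was described from the 4 libraries of control mice. The set comprised 9675 genes out of 22026 protein-coding rows in a table of 35275 rows. Its members were chosen by their own level: a gene entered when the authors typed it as protein-coding and its mean over the 4 control libraries was at least 1 FPKM (fragments per kilobase of gene length scaled to the library's total). The levels that chose the members are given below as a description with no test. All mice were wild type on the C57BL/6J background, 8 to 10 weeks old, and carried an osmotic minipump filled with sterile phosphate-buffered saline (PBS) for 4 weeks before the muscle was frozen. The implant and its surgery are therefore part of this baseline. The 4 libraries are named PBS4, PBS5, PBS7 and PBS8 after the numbers in the labels, and values given in groups of 4 stand in that order. Means are given with the SD over these libraries (n = 4). The labels do not state whether each library came from its own animal, so the spread may be partly technical. The 5 ammonium acetate libraries of the series were not analysed here.

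Gastrocnemius is a calf muscle of the hind limb that in mice is built mostly of fast fibres. A muscle fibre is a multinucleate cell packed with sarcomeres, in which myosin heads of the thick filament pull on actin of the thin filament. Contraction is switched on by calcium that binds troponin on the thin filament, and it ends when a calcium pump returns the calcium to the sarcoplasmic reticulum. ATP for this work comes from phosphocreatine, from breakdown of glycogen and glucose, and from oxidative phosphorylation in mitochondria, whose own small genome encodes 13 protein subunits of the respiratory chain. Fast glycolytic fibres rely mainly on sugar, while slow fibres hold more myoglobin and mitochondria and burn more fat. Bulk muscle RNA also contains messages from vessels, connective tissue, nerve sheath, fat and resident immune cells.

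The libraries held from 25452271 counted reads in PBS5 to 41780251 in PBS7, so 1 read on a gene of 1 kb was worth 0.0239 to 0.0393 FPKM. The members carried 97.7% to 98.2% of all FPKM in a library, and rows not typed as protein-coding carried 1.57% to 1.95%. Of 18 defining markers of muscle fibres, 17 were members, at means of 56.0 to 24570.1 FPKM, with summed levels of 97945, 83984, 96962 and 82640.2 FPKM. The exception was Tnnc2, described at the end. Xist, the RNA that silences an X chromosome in females, had 0 reads in all 4 libraries, and the Y-linked Ddx3y was present at 14.5, 18.6, 16.99 and 18.8 FPKM. The sources used here do not give the sex of the mice.

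Promoter windows of 300 bases (250 before to 50 after the start) are shown for 3 abundant muscle genes, picked because their windows hold motifs of muscle promoters, and for Fth1, an abundant gene used in most tissues. They come from RefSeq on GRCm38.p6, which matched 7378 of 9663 nuclear members by symbol (76.4%) and 20 of the 25 most abundant nuclear genes. Acta1 encodes skeletal muscle alpha-actin, the core of the thin filament; Myh4 encodes the myosin heavy chain of the fastest mouse fibres; Pvalb encodes parvalbumin, a soluble calcium buffer of fast fibres; Fth1 encodes ferritin heavy chain, an iron store. The windows lie at chr8:123894726-123895025 on the minus strand, chr11:67237562-67237861 on the plus strand, chr15:78206351-78206650 on the minus strand and chr19:9982396-9982695 on the plus strand. Sequences run 5′ to 3′ along the gene, and capitals mark a TATA box match (TATAAA), a CArG box (CC, then 6 bases of A or T, then GG, the element bound by serum response factor) or a MEF2 site.
Acta1: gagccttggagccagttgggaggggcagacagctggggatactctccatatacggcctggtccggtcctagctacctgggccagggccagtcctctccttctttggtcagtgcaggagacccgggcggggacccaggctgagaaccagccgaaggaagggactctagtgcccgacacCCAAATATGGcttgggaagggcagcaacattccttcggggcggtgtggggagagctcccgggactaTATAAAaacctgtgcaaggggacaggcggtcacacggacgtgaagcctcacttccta
Myh4: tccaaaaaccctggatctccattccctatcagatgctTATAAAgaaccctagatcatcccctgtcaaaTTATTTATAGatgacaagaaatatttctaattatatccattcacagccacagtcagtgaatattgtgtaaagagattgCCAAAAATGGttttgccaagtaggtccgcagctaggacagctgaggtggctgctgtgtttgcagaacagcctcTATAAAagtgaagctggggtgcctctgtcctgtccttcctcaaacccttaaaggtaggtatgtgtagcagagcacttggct
Pvalb: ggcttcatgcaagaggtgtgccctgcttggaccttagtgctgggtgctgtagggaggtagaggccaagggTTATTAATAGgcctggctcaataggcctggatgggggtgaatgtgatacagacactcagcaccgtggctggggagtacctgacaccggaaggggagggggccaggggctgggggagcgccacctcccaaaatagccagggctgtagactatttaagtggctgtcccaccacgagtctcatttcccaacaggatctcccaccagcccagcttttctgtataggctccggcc
Fth1: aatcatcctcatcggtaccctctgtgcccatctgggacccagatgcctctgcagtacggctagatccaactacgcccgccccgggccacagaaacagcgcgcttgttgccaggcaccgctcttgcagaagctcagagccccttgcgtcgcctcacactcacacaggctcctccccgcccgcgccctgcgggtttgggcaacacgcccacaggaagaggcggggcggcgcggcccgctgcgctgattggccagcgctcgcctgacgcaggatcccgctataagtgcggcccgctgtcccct
Counted from the RefSeq start as 0, the Acta1 window held a CArG box at -73 and TATAAA at -7, where the RefSeq start lies 39 bases upstream of the start in the deposited table. The Myh4 window held a MEF2 site at -182, a CArG box at -104 and TATAAA at -31 and -213, and the Pvalb window held a MEF2 site at -180. The RefSeq start lies 217 bases from the start in the deposited table for Myh4, 57 for Fth1 and 0 for Pvalb. The Fth1 window held none of these letters. The windows of Myl1, Ckm and Mylpf, muscle genes with higher levels than Myh4, held no CArG box or MEF2 site either. The Fth1 window held 27 CpG dinucleotides, against 12 for Acta1, 5 for Pvalb and 1 for Myh4. Muscle genes whose windows are not shown varied too, with 2 for Mylpf, 7 for Ckm, 20 for Tpm2 and 27 for Tpm1. The windows shown therefore do not stand for muscle genes in general.

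Among the 25 most abundant nuclear members that had a window, the median number of CpG dinucleotides was 9, against 15.5 for the 100 most abundant, 22 for all 7378 members with a window and 5 for 8415 protein-coding genes below the threshold. A CArG box on either strand was found in 3 of these 25 windows (12%), in 8 of 100 (8%), in 1.42% of members and in 1.47% of all 15793 protein-coding windows. The 3 were those of Acta1, Myh4 and Ldha, and the Ldha window was set on a RefSeq start 4329 bases from the start in the deposited table. The MEF2 pattern on either strand was found in 3 of 25, 4 of 100, 2.02% of members and 2.86% of all windows. TATAAA starting between -40 and -20 on the gene strand was found in 1 of 25, 3 of 100, 1.27% of members and 2.81% of all windows. These counts describe letters in a fixed window and not binding.

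A small number of genes made up most of the message. The 6 most abundant genes held 25% of the summed FPKM of the members, 26 genes held 50%, 423 held 75% and 1995 held 90%. The 10 most abundant genes together held 35.1%, 33.0%, 33.2% and 32.9% in the 4 libraries (33.6% ± 1.04). Of these, mt-Co1, mt-Nd1, mt-Cytb and mt-Nd2 are mitochondrial, and Acta1, Tnnt3, Aldoa, Tnni2, Myl1 and Ckm are nuclear. The median member stood at 6.29 FPKM, with quartiles of 2.74 and 16.8, while the most abundant reached 30423 FPKM. Only 42 genes exceeded 1000 FPKM and 7 exceeded 10000 FPKM, whereas 6055 genes (62.6% of the members) lay between 1 and 10 FPKM and together held 5.08%. Genes abundant by FPKM were shorter: the median listed length was 1547 bases for the top 100 and 3089 bases for all members. FPKM is itself divided by this length, so a ranking by FPKM favours short genes. Of the 25 most abundant nuclear genes, 7 lie on chromosome 7, which holds 7.51% of all members.

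**Figure D1:**
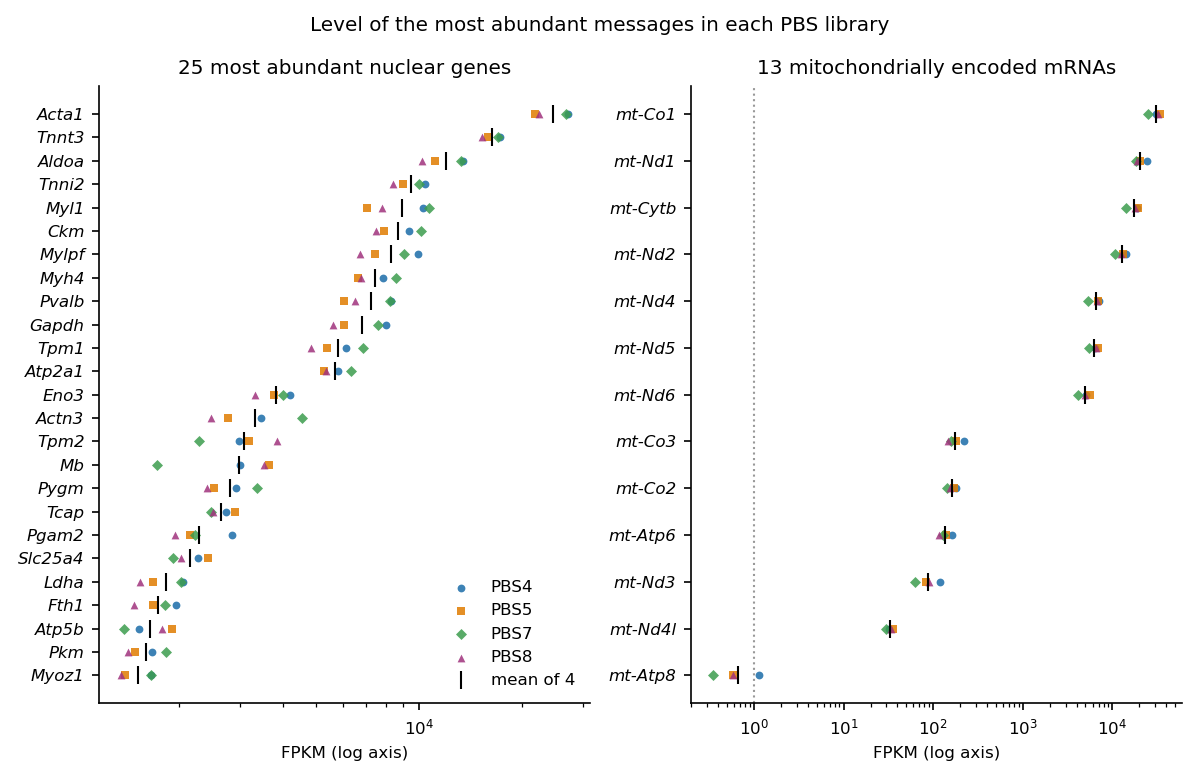
FPKM (log axis) of the 25 most abundant nuclear genes and the 13 mitochondrially encoded mRNAs in each PBS library (coloured points), with the mean of the 4 as a black tick. Acta1 and Tnnt3 stand apart from the genes below them, Mb is lowest in PBS7 at 1727 FPKM, and the mitochondrial mRNAs fall into a group that starts at 4104 FPKM and a group of at most 219 FPKM; the dotted line marks 1 FPKM.

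The thin filament was the most abundant nuclear class, with 12.6% ± 0.870 of the summed FPKM from 15 members. Acta1 (ENSMUSG00000031972, chr8:123891767-123894736) was the most abundant nuclear gene at 27199, 21872, 26772 and 22437 FPKM, a mean of 24570.1 ± 2804. It was higher in PBS4 and PBS7 than in PBS5 and PBS8, and in every library it exceeded the highest value of the next gene. That gene was Tnnt3, the fast isoform of the troponin subunit that ties troponin to tropomyosin, at 17286, 15851, 16998 and 15298 FPKM. Its libraries lay within a 1.13-fold range. Tnni2, the fast inhibitory troponin subunit, stood at 10437, 8999, 9998 and 8408 FPKM. Means of Tpm1 and Tpm2, the tropomyosin strands that cover myosin's binding sites on actin, were 5807 ± 886 and 3081 ± 649 FPKM. Tpm1 was highest and Tpm2 lowest in PBS7. The lowest member was Tnni1, the slow inhibitory subunit, at 41.3, 53.6, 21.1 and 62.1 FPKM.

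The thick filament and the M-band that holds it in register took 6.12% ± 0.733, from 18 of 24 listed genes. Myl1, the fast essential light chain, read 10295, 7033, 10663 and 7817 FPKM. Mylpf, the fast regulatory light chain, read 9940.1, 7456, 9056 and 6748 FPKM. Myh4, the heavy chain they attach to, read 7880.3, 6627, 8572 and 6762 FPKM. Per length, Myl1 exceeded Myh4 in every library and Mylpf did so in all but PBS8. All 3 genes were higher in PBS4 and PBS7 than in PBS5 and PBS8, with no overlap between those pairs of libraries. The class as a whole was split. PBS4 and PBS7 were the top pair of libraries in 8 of the 18 members, against 10.0% of all members. PBS5 and PBS8 were the top pair in 8 others, against 38.6%. The lowest member was Myl4, the atrial and embryonic light chain, at 1.22, 1.73, 1.05 and 1.53 FPKM. The embryonic Myh3 and the neonatal Myh8 were below the threshold at 0.337 and 0.348 FPKM.

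Titin, the Z-disc and sarcomere assembly genes held 3.04% ± 0.168, and this share differed little between libraries (2.92, 2.93, 3.28 and 3.01%). Actn3, the alpha-actinin of fast fibres that cross-links actin at the Z-disc, led them at 3459.8, 2770.2, 4571 and 2469 FPKM, highest in PBS7 and lowest in PBS8. Tcap, which caps titin at the Z-disc, read 2734, 2898, 2472 and 2510.1 FPKM. Myoz1, a Z-disc partner of calcineurin and alpha-actinin, read 1659, 1390.0, 1656 and 1356 FPKM, higher in PBS4 and PBS7 than in PBS5 and PBS8. The lowest of the 39 members was Igfn1 at 1.21, 1.14, 6.61 and 2.85 FPKM, with PBS7 above the rest. Together the 3 contractile classes (72 genes) held 21.8% ± 1.72 of the message.

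Genes of calcium release and reuptake held 3.82% ± 0.397 (30 members). Pvalb led at 8285, 6039, 8208 and 6529 FPKM. Atp2a1, the calcium pump SERCA1 of fast fibres, followed at 5792, 5298, 6319 and 5357 FPKM. Casq1, which stores calcium inside the reticulum, read 1238, 926, 1221 and 1026 FPKM. All 3 had their lowest value in PBS5, and 17 of the 30 members were lowest there, against 14.8% of all members. At the other end Pln, the pump inhibitor of slow and cardiac muscle, stood at 0.820, 1.85, 0.512 and 0.939 FPKM. Ion transport at the surface membrane took 0.318% ± 0.0185: Fxyd1, a regulator of the sodium pump, had a mean of 257 ± 9.98 FPKM.

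The 4 adult myosin heavy chains placed the libraries on a fast to slow scale. Myh4 (type IIb fibres) made up 88.3%, 84.0%, 93.0% and 82.1% of their summed FPKM, Myh1 (type IIx) 6.21%, 8.49%, 4.34% and 9.68%, Myh2 (type IIa) 4.97%, 6.48%, 2.37% and 6.84%, and Myh7 (slow type I) 0.517%, 1.06%, 0.305% and 1.35%. PBS7 had the highest Myh4 share and the lowest share of the other 3 chains, and PBS8 the reverse. The levels behind these shares were 554, 670.3, 400.4 and 797 FPKM for Myh1, 444, 511, 219 and 563 FPKM for Myh2 and 46.2, 83.6, 28.1 and 111 FPKM for Myh7.

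**Figure D2:**
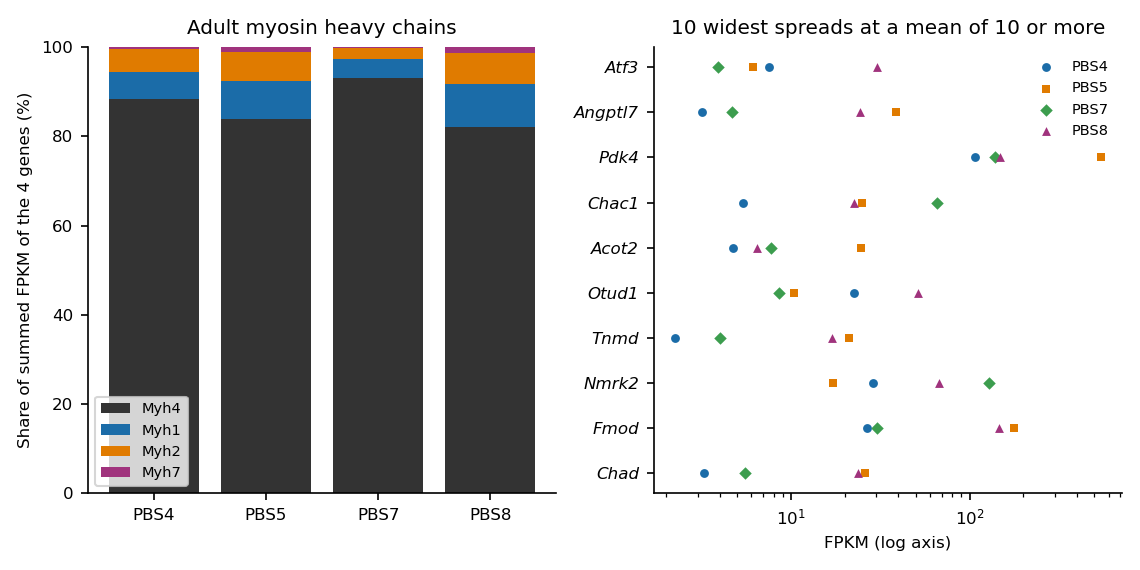
Left, share (%) of each adult myosin heavy chain in their summed FPKM, 1 bar per PBS library: Myh4 makes up 82.1% to 93.0%. Right, FPKM (log axis) in each library of the 10 genes with the highest coefficient of variation among members with a mean of at least 10 FPKM; Fmod, Chad, Tnmd and Angptl7 are high in PBS5 and PBS8, and Pdk4 and Acot2 in PBS5.

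Other slow fibre genes were also low in PBS7. Of 12 members on a list of 13 slow fibre genes, 11 were lowest in PBS7, against 24.5% of all members, and their summed levels were 1374, 1771, 666 and 1901 FPKM. Myl3, the slow essential light chain, read 429, 506, 211 and 515 FPKM. Myl2, the slow regulatory light chain, read 259, 265, 105 and 278 FPKM. Tnnt1, the slow troponin T, read 172, 240.1, 75.9 and 269.8 FPKM. PBS7 lay below the other libraries in each of these. Fast fibre genes outweighed them in every library, with summed levels of 84354, 69711, 86152 and 68571 FPKM over 13 members. Myoglobin (Mb), the oxygen store of oxidative fibres, stood at 3004, 3643, 1727 and 3537 FPKM, so that PBS5 held 2.11 times as much as PBS7. In bulk muscle, a smaller share of slow fibres in a sample and less slow message per fibre cannot be told apart.

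By FPKM, sugar breakdown was the next nuclear class after the thin filament; by share of fragments, which is not divided by gene length, the thick filament (8.18%) stood above it (5.51%). All 25 listed genes of glycolysis and glucose uptake were members and held 6.85% ± 0.748. Aldoa, muscle aldolase, read 13486, 11141, 13272 and 10192 FPKM. Gapdh, which makes the NADH of glycolysis, read 8002, 6064, 7610.3 and 5599.8 FPKM. Eno3, muscle enolase, read 4198, 3768, 4021 and 3325 FPKM. In all 3 PBS4 was highest and PBS8 lowest. Pgam2, Ldha and Pkm, which carry out late steps of the pathway and the reduction of pyruvate to lactate, had means of 2288 ± 389, 1822 ± 255 and 1602 ± 186 FPKM. The lowest was Hk1, the hexokinase isoform typical of brain and red cells, at 2.46, 2.67, 2.18 and 2.69 FPKM. Gapdh, often used as a constant reference, varied 1.43-fold between these libraries (coefficient of variation 17.1%).

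Glycogen genes held 1.02% ± 0.125 and were led by Pygm, the muscle glycogen phosphorylase that frees glucose units, at 2920.2, 2519, 3376 and 2403 FPKM. Next came Pgm2 and Ugp2, which makes the UDP-glucose used for glycogen, with means of 557 ± 109 and 291 ± 43.1 FPKM, and the lowest was Pgm1 at 1.06 FPKM. In mouse annotation of this period the symbols Pgm1 and Pgm2 were assigned in the opposite way to the human ones. High-energy phosphate transfer held 2.38% ± 0.239, of which Ckm, the cytosolic creatine kinase that regenerates ATP from phosphocreatine, made up most at 9326, 7892, 10109 and 7495 FPKM. Ckmt2, its mitochondrial counterpart, read 810.5, 1057, 640.4 and 1021 FPKM. Ak1, an adenylate kinase, had a mean of 760.0 ± 54.1 FPKM. Ckm was highest in PBS7, where Ckmt2 was lowest. The lowest member was Gatm, an enzyme of creatine synthesis, at 3.23 FPKM.

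The mitochondrial genome supplied 20.7% ± 1.96 of the summed FPKM through 12 of its 13 mRNAs, in separate libraries 21.4, 22.1, 17.8 and 21.6%. PBS7 was lowest, and 10 of the 12 members were lowest there, against 24.5% of all members. mt-Co1 (ENSMUSG00000064351, chrMT:5328-6872), the catalytic subunit of cytochrome oxidase, was the most abundant message of all at 30357, 33636, 25115 and 32584 FPKM. mt-Nd1, a membrane subunit of complex I, read 24263, 20491, 18193 and 18926 FPKM, highest in PBS4. mt-Cytb of complex III read 18839.6, 19302, 14297 and 18029 FPKM, highest in PBS5. mt-Nd2, also of complex I, had a mean of 12644 ± 1473 FPKM. The complex I subunits mt-Nd4, mt-Nd5 and mt-Nd6 had means of 6486 ± 825, 6284 ± 619 and 4930.2 ± 606 FPKM.

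The other 6 mitochondrial mRNAs were listed far lower, although they are cut from the same long transcript as most of the others. mt-Co3, a subunit of cytochrome oxidase, read 219, 178, 159 and 148 FPKM. mt-Co2, another subunit, read 179, 171, 144 and 152 FPKM. Both were highest in PBS4. mt-Atp6, an ATP synthase subunit, mt-Nd3 and mt-Nd4l, of complex I, had means of 137 ± 19.6, 88.7 ± 23.2 and 32.7 ± 2.51 FPKM. mt-Atp8 was below the threshold at 1.16, 0.578, 0.352 and 0.586 FPKM, from 8, 3, 3 and 4 reads. The nuclear genome holds a copy of this stretch on chromosome 1, annotated as pseudogenes between 24611535 and 24616197 (GRCm38). The copy aligned to 681 of 684 bases of mt-Co2, 678 of 681 of mt-Atp6 and 783 of 784 of mt-Co3 without a mismatch, and it differed at 1 of 345 aligned bases of mt-Nd3. The copies themselves were listed at 178 ± 20.3, 270.2 ± 38.6, 173.0 ± 38.9 and 28.3 ± 4.51 FPKM. The first 60 bases of mt-Nd3 and of its chromosome 1 copy are shown to make the likeness visible, with the only differing base in capitals; below them are the same bases of mt-Co3 and its copy, which do not differ.
mt-Nd3: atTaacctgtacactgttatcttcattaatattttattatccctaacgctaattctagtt
RP23-8J15.5: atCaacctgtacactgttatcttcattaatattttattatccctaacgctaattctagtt
mt-Co3: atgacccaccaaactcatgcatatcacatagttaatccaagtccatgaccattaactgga
RP23-8J15.4: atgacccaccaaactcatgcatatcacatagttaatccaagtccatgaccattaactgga
mt-Nd4 aligned without a mismatch over 63.6% of its length and mt-Co1 with 1 mismatch over 31.3% of its length, while the best alignments of mt-Nd1, mt-Nd2, mt-Cytb and mt-Nd5 were 68.3% to 73.6% identical. The sources used here do not say how reads that fit several places were counted, so the levels of mt-Co2, mt-Atp6, mt-Co3 and mt-Nd3 are uncertain and the mitochondrial share is a value for this counting. mt-Nd4l was also low, with a best alignment 76.5% identical over 45.8% of its length. Only the annotated pseudogenes were aligned, so parts of the chromosome 1 copy that lie between them were not compared. A closer copy of mt-Nd4l or mt-Atp8 there would have been missed. The part played by the copies was not tested.

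Nuclear genes of oxidative metabolism added 7.12% ± 0.94. Subunits of complexes II to V held 3.26% ± 0.388, led by Atp5b, the catalytic beta subunit of ATP synthase, at 1526, 1909.8, 1378 and 1775 FPKM. Cox6a2, the muscle isoform of a cytochrome oxidase subunit, read 1335, 1381, 1124 and 1190.4 FPKM. Atp5a1, the alpha subunit of ATP synthase, had a mean of 979 ± 113 FPKM, while Atpif1, an ATP synthase inhibitor, was lowest at 2.29 FPKM. PBS7 was lowest in 42 of these 45 genes and in 31 of 36 nuclear complex I genes, against 24.5% of all members. PBS5 was highest in 31 and 20 of them, against 27.2% of all members. Complex I held 1.33% ± 0.141: its means ran from Ndufa4 (767 ± 85.6 FPKM) and Ndufb9 (559 ± 98.9 FPKM) down to Ndufb7 (30.1 ± 4.17 FPKM).

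The citric acid cycle, pyruvate entry and the malate shuttle held 1.15% ± 0.179, and all 29 listed genes were members. Mdh2, mitochondrial malate dehydrogenase, had a mean of 596 ± 70.8 FPKM and Cs, citrate synthase, 312 ± 34.9 FPKM. Mpc1, a subunit of the pyruvate carrier, was lowest at 8.25 FPKM. Carriers and porins held 0.781% ± 0.0618, mostly through Slc25a4, which exchanges ADP for ATP across the inner membrane, at 2264, 2419, 1911 and 2022 FPKM. Vdac1 and Vdac3, channels of the outer membrane, had means of 721 ± 33.9 and 312 ± 6.74 FPKM, and Slc25a37, an iron importer, 2.99 FPKM.

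Fat uptake and oxidation was the nuclear metabolic class with the widest spread. Its 24 members had summed levels of 2501, 4256, 1876 and 3034 FPKM, and all 24 were highest in PBS5, against 27.2% of all members. PBS7 was lowest in 19 of them, against 24.5% of all members. Fabp3, the fatty acid carrier of muscle and heart, read 610.0, 1228, 262 and 578 FPKM, so PBS5 held over 4 times the level of PBS7. Lpl, which frees fatty acids from lipoproteins, read 225, 393, 149.9 and 321 FPKM. Acadm, an acyl-CoA dehydrogenase, read 157, 254, 149.9 and 218 FPKM. The lowest member, Eci2, had a mean of 22.9 ± 4.49 FPKM. Pdk4, a kinase that turns off pyruvate dehydrogenase when fat is used, was also highest in PBS5, at 107, 543, 138 and 147 FPKM. So was Acot2, a mitochondrial acyl-CoA thioesterase, at 4.74, 24.8, 7.72 and 6.46 FPKM. Amino acid and ammonia handling held 0.411% ± 0.0521 over 30 members and was led by genes of polyamine metabolism: Amd1 at 620.2 ± 189 FPKM, Smox at 312 ± 117 FPKM and Oaz1 at 138 ± 12.4 FPKM. Amd1 and Smox were lowest in PBS8. The lowest member was Phgdh, the entry enzyme of serine synthesis, at 1.54 FPKM.

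**Figure D3:**
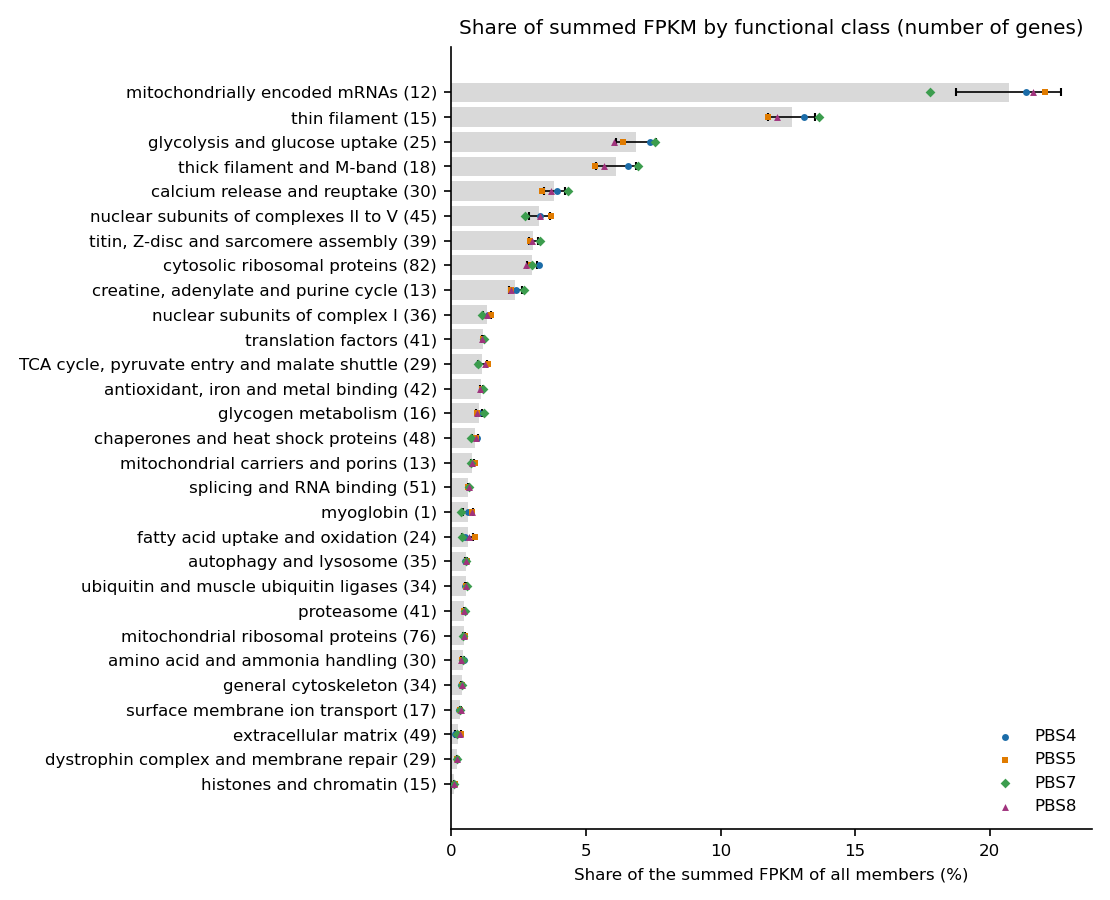
Share (%) of the summed FPKM of all members held by each of 29 functional classes, with the number of member genes in brackets; grey bars are means of the 4 PBS libraries, error bars are SDs and coloured points are the libraries. The mitochondrially encoded mRNAs (20.7%) and the thin filament (12.6%) are the only classes above 10%.

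The 29 classes together covered 940 members and 74.8% ± 1.39 of the summed FPKM. The other 8735 members held 25.2%. Shares that are not divided by gene length differed by over 1.5 times for 10 classes: as a share of fragments the cytosolic ribosomal proteins held 1.44%, the mitochondrial ribosomal proteins 0.290%, nuclear complex I 0.690%, complexes II to V 1.99%, myoglobin 0.336% and the antioxidant class 0.641%, all lower, and glycogen metabolism 1.59%, the extracellular matrix 0.455% and the dystrophin complex 0.372%, all higher. The mitochondrially encoded mRNAs held 12.6% by fragments. Protein synthesis was the main remaining task: 82 of 83 cytosolic ribosomal proteins were members and held 2.99% ± 0.198, with summed levels of 16230.4, 14316, 14024 and 12898 FPKM. PBS4 was highest in 69 of them, against 12.1% of all members, and PBS8 lowest in 72, against 12.2%. Rplp0, Rps2 and Rplp1 led at 600.0 ± 75.9, 555 ± 69.5 and 522 ± 69.2 FPKM. Translation factors held 1.17% ± 0.0328: Tpt1 had a mean of 1243 ± 194 FPKM, Eef1a2, the elongation factor isoform of muscle and neurons, 997 ± 53.7 FPKM, Eef2 566 ± 46.5 FPKM and the lowest, Eif3d, 9.72 FPKM. Mitochondrial ribosomal proteins held 0.465% ± 0.0236 over 76 members, from Mrpl42 (271 ± 30.8 FPKM), Mrpl30 (93.8 ± 10.6 FPKM) and Mrps21 (91.4 ± 11.5 FPKM) down to Mrps25 (3.50 ± 0.134 FPKM).

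Protein removal was steadier than protein folding. All 41 listed proteasome genes were members, with summed levels of 2359.6, 2290.4, 2341 and 2201 FPKM (coefficient of variation 3.08%). Their median coefficient of variation was 6.42%, against 12.7% over all members. Their median level was 49.6 FPKM, and members between 10 and 100 FPKM had a median coefficient of variation of 9.26%. Psmb7, Psmd8 and Psmb5 led at 168 ± 8.24, 142 ± 30.2 and 109.5 ± 9.13 FPKM. The lowest was the interferon-inducible subunit Psmb9, at 1.001, 0.899, 1.03 and 2.44 FPKM with PBS8 highest. Ubiquitin and muscle ubiquitin ligases held 0.538% ± 0.0372, led by Asb2 (384 ± 62.96 FPKM), a ligase subunit that is highest here in PBS7, polyubiquitin Ubb (349 ± 33.7 FPKM) and Ube2b (245 ± 12.5 FPKM), with Nedd4l lowest at 2.99 FPKM. Autophagy and lysosome genes held 0.539% ± 0.0398: Pink1, a sensor of damaged mitochondria, had a mean of 401 ± 61.5 FPKM, the protease Ctsd 324 ± 17.2 FPKM, Psap 310.1 ± 21.9 FPKM and the lowest, Park2, 1.43 FPKM. Chaperones held 0.881% ± 0.101, and 35 of 48 were lowest in PBS7, against 24.5% of all members. Cryab, the small heat shock protein of the Z-disc, read 799, 721, 335 and 598 FPKM, lowest in PBS7. Hsp90ab1 had a mean of 496 ± 30.1 FPKM, Hspb6 465 ± 94.7 FPKM and the lowest, Hspa1l, 1.79 FPKM.

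Antioxidant, iron and metal genes held 1.12% ± 0.0510, led by Fth1 at 1961, 1673, 1811 and 1475 FPKM, the selenoprotein Sepw1 at 1139 ± 138 FPKM and Gpx4, which removes lipid peroxides, at 273 ± 29.1 FPKM; Gclc, the entry enzyme of glutathione synthesis, was lowest at 3.45 FPKM. Splicing and RNA binding genes held 0.629% ± 0.0301 and were dominated by the cold shock proteins Ybx3 (976 ± 141 FPKM) and Ybx1 (523 ± 43.98 FPKM), with Hnrnpu lowest at 1.6005 FPKM. The dystrophin complex and membrane repair genes held 0.206% ± 0.00772: the sarcoglycan Sgca had a mean of 101 ± 7.26 FPKM, Anxa6 95.9 ± 3.15 FPKM and Sntb1 2.30 FPKM. The general cytoskeleton held 0.380% ± 0.0105, with Tuba4a at 322 ± 59.2 FPKM, Cfl2 at 150.2 ± 7.87 FPKM, Tubb4b at 146 ± 17.5 FPKM and Tuba1c at 1.48 FPKM. Histones and chromatin proteins held 0.101% ± 0.00842, led by the linker histone Hist1h1c at 146, 189, 147 and 121 FPKM, then Hist1h2bc and H1f0 at 75.1 ± 12.03 and 55.6 ± 5.72 FPKM, with Hmgb2 lowest at 1.15 FPKM.

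Regulators stood far below the most abundant sarcomere genes. Of 23 transcription factors of the muscle programme, 20 were members, with a median of 31.7 FPKM. Mef2c, a factor that keeps muscle genes active, had a mean of 108 ± 14.01 FPKM, Myf6, the myogenic factor that predominates in adult fibres, 71.6 ± 8.63 FPKM, Nfic 71.2 ± 6.54 FPKM and the lowest, Hlf, 2.87 FPKM. All 25 genes for mitochondrial biogenesis and nuclear receptors were members: Nfe2l1 had a mean of 174 ± 28.6 FPKM, Nr4a1 121 ± 15.8 FPKM, Esrra, a driver of oxidative genes, 64.1 ± 9.83 FPKM and the lowest, Nr4a2, 1.71 FPKM. Of 39 Hox genes, which mark position along the body and limb, 14 were members, led by Hoxc10 (41.8 ± 4.88 FPKM), Hoxd8 (21.3 ± 4.21 FPKM) and Hoxd9 (11.1 ± 2.84 FPKM), with Hoxa5 lowest at 1.16 FPKM. Clock genes gave 16 members: Tef had a mean of 63.99 ± 3.90 FPKM. Nr1d1, the REV-ERB alpha repressor, read 25.8, 51.996, 62.3 and 37.8 FPKM. Bhlhe40 and Ciart had means of 35.5 ± 12.1 and 1.33 FPKM. Nr1d1 ranged 2.42-fold with PBS4 lowest and PBS7 highest, and the sources used here do not give the hour of collection.

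All 30 genes on a list for atrophy, FoxO and growth control were members, with summed levels of 546, 597, 572 and 582 FPKM. Trim63 (MuRF1), a ligase that marks sarcomere proteins for removal, read 92.1, 140.3, 108 and 122 FPKM, highest in PBS5. Akt2, a kinase of insulin signalling, had a mean of 80.4 ± 3.50 FPKM, Foxo4 55.02 ± 8.41 FPKM and the lowest, Sesn2, 1.05 FPKM. PBS4 was lowest in 16 of the 30, near its share of all members (48.5%). Of 25 secreted factors, 17 were members, led by the matrix proteins Dcn (127, 336, 201 and 278 FPKM) and Sparc (101, 206, 106 and 200.0 FPKM) and by Vegfb (119 ± 17.9 FPKM), with Angptl4 lowest at 0.791, 4.80, 1.65 and 0.782 FPKM and highest in PBS5. Genes of the nerve to muscle synapse gave 13 members: Prkar1a had a mean of 47.7 ± 3.71 FPKM, Rapsn, which clusters acetylcholine receptors, 16.2 ± 0.684 FPKM, Ufsp1 11.5 ± 2.39 FPKM and Agrn 1.05 ± 0.139 FPKM. Of 10 embryonic and denervation genes, the members were Gadd45a (5.45 ± 0.839 FPKM), Myog (4.54 ± 1.87 FPKM), Chrna1 (3.66 ± 0.335 FPKM) and Myl4.

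By list median, markers of cells other than fibres stood far below the muscle fibre markers, whose median was 2804.5 FPKM. Among lists with over 5 members, the tendon genes differed most. The 49 extracellular matrix members summed to 704, 1647, 886 and 1567 FPKM, and the 7 tendon members to 66.1, 345, 75.9 and 290.2 FPKM. PBS5 and PBS8 were above PBS4 and PBS7 in both sums, and 42 of the 49 matrix genes had PBS5 and PBS8 as their top libraries, against 38.6% of all members. Dcn and Sparc led the matrix list, followed by Fmod, which is on both lists, a small proteoglycan of tendon, at 26.5, 178, 30.4 and 147 FPKM, and Col12a1 was lowest at 0.353, 1.84, 0.618 and 2.15 FPKM. Of the tendon genes, Tnmd, a membrane protein of tendon cells, read 2.24, 21.1, 4.02 and 17.1 FPKM. Thbs4, a matrix protein, read 26.1, 82.02, 23.6 and 63.5 FPKM. In both, PBS5 and PBS8 lay above the other libraries without overlap. Chad and Kera, further matrix proteins of tendon, had means of 14.7 ± 11.9 and 9.33 ± 7.596 FPKM, and Scx, the tendon transcription factor, 5.67 ± 1.61 FPKM. The 12 fibro-adipogenic progenitor markers (stromal cells lying between fibres) summed to 479.8, 1101, 745 and 953 FPKM, and 11 were lowest in PBS4, against 48.5% of all members. They were led by Gsn (218, 539, 354 and 439.8 FPKM), Dcn and Ly6a (47.6 ± 16.5 FPKM), with Osr1 lowest at 1.61 FPKM. More cells of a type and more RNA per cell cannot be told apart here.

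Nerve sheath genes gave 7 members of 11, with sums of 96.9, 187, 64.2 and 146 FPKM, and all 7 were highest in PBS5, against 27.2% of all members, and lowest in PBS7, against 24.5%. Pmp22, a protein of peripheral myelin, read 31.9, 60.1, 22.2 and 47.6 FPKM. Mbp, another myelin protein, read 8.62, 20.8, 6.86 and 12.8 FPKM. Vessel markers were the steadiest of the non-fibre cell lists: 13 of 13 endothelial genes were members and summed to 149, 168, 146 and 154 FPKM, with Cdh5, Pecam1 and Esam at 29.3 ± 1.53, 25.8 ± 2.41 and 13.8 ± 2.36 FPKM and Egfl7 at 3.87 FPKM. Smooth muscle and pericyte markers summed to 207, 241, 177 and 234 FPKM, led by Rgs5 (79.4 ± 13.2 FPKM), Mustn1 (32.2 ± 8.01 FPKM) and Acta2 (31.6 ± 4.23 FPKM), with Cspg4 at 1.25 FPKM.

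Macrophage markers gave 11 members with sums of 44.4, 103, 92.2 and 116 FPKM, and all 11 were lowest in PBS4, against 48.5% of all members. Lyz2 read 17.2, 41.5, 34.8 and 44.2 FPKM, and the complement genes C1qa and C1qb and the receptor Cd14 had means of 15.03 ± 4.93, 12.4 ± 4.67 and 1.24 ± 0.437 FPKM. Adipocyte markers gave 11 members of 15. Their sum was dominated by Car3, a carbonic anhydrase that muscle fibres also express, at 1051, 754, 1926 and 1294 FPKM; the other 10 summed to 267, 449.9, 500.2 and 338 FPKM. Fabp4, a fatty acid carrier of fat and vessel cells, read 185, 298, 181 and 197 FPKM, and Cfd (adipsin) 39.5, 65.98, 177 and 63.2 FPKM. Adipoq, the adipocyte hormone adiponectin, read 3.74, 9.64, 15.5 and 5.94 FPKM. Plin1, which coats lipid droplets, read 1.40, 3.67, 8.36 and 3.69 FPKM. Both were highest in PBS7 and lowest in PBS4. The lowest was Pck1 at 2.63 FPKM. Of 13 neutrophil and mast cell markers, the mast cell genes Tpsb2, Mcpt4 and Cpa3 were members at 3.88, 3.70 and 1.37 FPKM. They summed to 3.41, 10.5, 13.9 and 7.98 FPKM. The other 10 were below the threshold, the neutrophil markers and also Kit, a receptor of mast cells, at 0.210 FPKM.

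Of 10 markers of satellite cells, the stem cells of muscle, 6 were members, led by Sdc4, Spry1 and Cdh15 at 12.8, 10.5 and 7.59 FPKM. The defining factor Pax7 was below the threshold at 0.176, 0.289, 0.352 and 0.342 FPKM. Red cell genes were led by Hbb-bs at 96.8 ± 14.8 FPKM and Hba-a1 at 78.8 ± 12.1 FPKM. The globin paralogs are near-identical and their split is uncertain. None of 28 measured T and B cell, keratinocyte and neuronal markers was a member, the highest being Sbsn at 0.723 FPKM. Of 8 liver genes only Cyp2e1 was a member, at 5.40, 13.3, 23.1 and 9.84 FPKM. Of 11 cardiac genes, Actc1, the cardiac actin whose protein is nearly identical to that of Acta1, read 153 ± 17.2 FPKM, and Myl4 was the only other member.

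Activation genes were mostly highest in PBS8. All 31 members of an interferon response list were highest in PBS8, against 40.5% of all members, and summed to 224, 283, 322 and 596 FPKM. A mean that PBS8 raises can bring low genes into the set, and the median of this list was 2.52 FPKM. The count of 31 is therefore a description. Cxcl9, Cxcl10 and Oasl2, the listed genes below the threshold, were highest in PBS8 too, at 2.32, 0.983 and 1.80 FPKM. B2m, the light chain of antigen-presenting molecules, read 99.6, 125, 141 and 224 FPKM. H2-K1, a heavy chain of these molecules, read 31.8, 40.9, 53.4 and 79.3 FPKM. H2-D1, another, had a mean of 58.3 ± 15.9 FPKM, and the lowest member was Ifit1 at 1.23 FPKM. Igtp, an interferon-induced GTPase named after its values were seen, read 4.47, 4.51, 4.69 and 21.8 FPKM, with PBS8 over 4 times the next library. PBS8 was also highest in 10 of the 11 macrophage members and in 19 of 24 immediate early genes, the fast transcriptional answer to a stimulus. The latter summed to 378, 396, 387 and 616 FPKM. Nr4a1, an orphan nuclear receptor, led them at 120.5, 115, 105 and 142 FPKM. Dusp1, a phosphatase that turns off MAP kinases, read 39.5, 58.1, 51.8 and 78.2 FPKM. Klf2 had a mean of 44.6 ± 12.9 FPKM, and Myc was lowest at 1.38 FPKM. Whether macrophage content has a part in the interferon values was not tested.

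**Figure D4:**
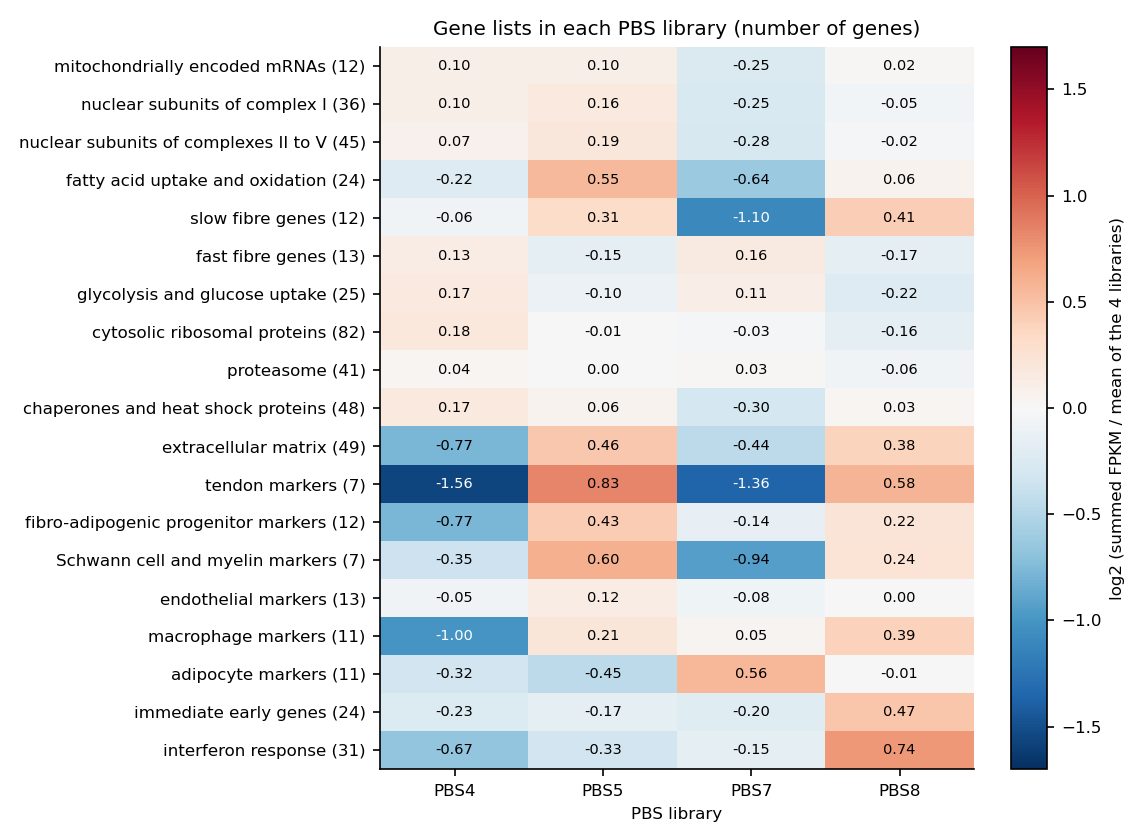
Heat map of 19 gene lists (rows, number of members in brackets) in the 4 PBS libraries (columns); each cell is log2 of the list's summed FPKM in that library over its mean across the 4. Tendon markers range from -1.56 in PBS4 to 0.83 in PBS5, slow fibre genes are at -1.10 in PBS7, interferon genes at 0.74 in PBS8, and the proteasome stays between -0.06 and 0.04.

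Across all members the 4 libraries differed little. The median coefficient of variation was 12.7% (quartiles 8.26% and 19.3%), and it was below 10% for 3361 genes (34.7%) and above 50% for 183 (1.89%). The spread beyond read counting dominated: at 10 to 100 FPKM the median coefficient of variation was 9.26% where counting alone gave 2.32%, and at 1000 to 10000 FPKM it was 13.8% where counting gave 0.279%. Between 1 and 10 FPKM the median was 14.9%, and counting gave 5.18%. PBS5 and PBS8 were the closest pair, with 76 genes at least 2-fold apart on the log2(FPKM + 0.5) scale, while PBS4 and PBS8 were the farthest, with 244. PBS4 was the lowest library for 48.5% of members and PBS8 the highest for 40.5%.

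**Figure D5:**
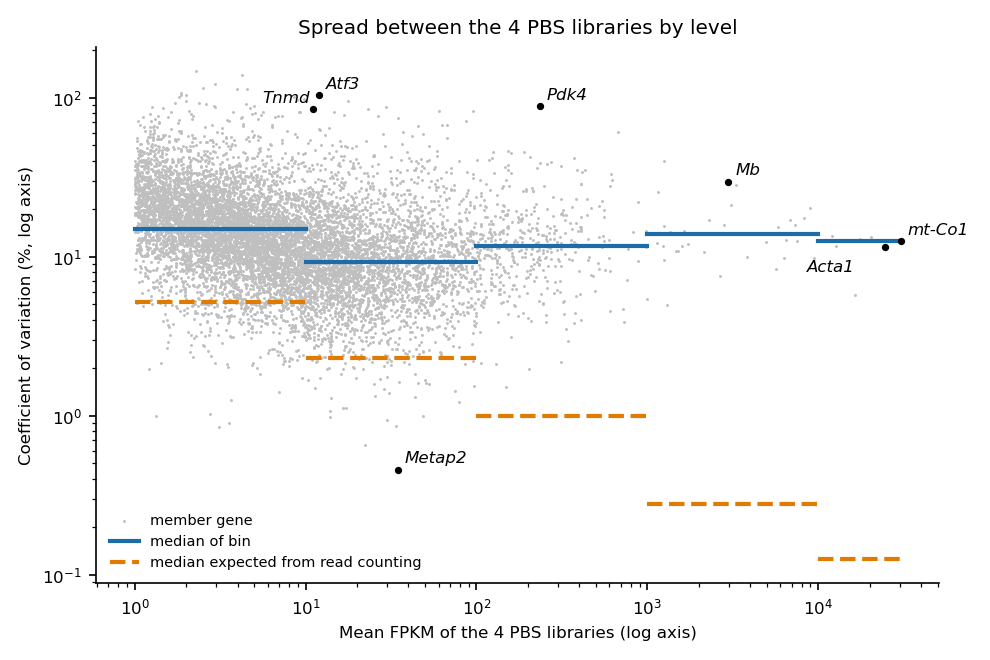
Coefficient of variation (%, log axis) over the 4 PBS libraries against mean FPKM (log axis) for the 9675 members (grey points), with the median of each 10-fold bin (blue) and the median expected from read counting (orange, dashed). The measured median stays between 9.26% and 14.9% while the counting part falls from 5.18% to 0.125%; named genes are black points.

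The steadiest genes at a mean of at least 10 FPKM were Metap2, Elp3, Dvl1, Psmc2, Rrn3, Sirt2, Lrpap1, Habp4, Dirc2 and Jph1. Metap2, which removes the initiator methionine from new proteins, read 34.5, 34.6, 34.9 and 34.6 FPKM (coefficient of variation 0.457%), and Jph1, which ties the reticulum to the surface membrane, 78.03, 78.99, 79.1 and 80.4 FPKM. Both spreads (1.22% for Jph1) were below the median that read counting alone gives over all members between 10 and 100 FPKM (2.32%). That median is not the counting spread of these genes themselves, which depends on their own read numbers. The widest spreads, in descending order, were in Atf3, Angptl7, Pdk4, Chac1, Acot2, Otud1, Tnmd, Nmrk2, Fmod and Chad. Atf3, a stress-induced transcription factor, read 7.53, 6.10, 3.90 and 30.4 FPKM, highest in PBS8. Angptl7 read 3.20, 38.7, 4.67 and 24.5 FPKM, high in PBS5 and PBS8 together with Tnmd, Fmod and Chad. Chac1, a glutathione-degrading enzyme of the stress response, read 5.42, 24.8, 66.1 and 22.5 FPKM. Nmrk2, a muscle enzyme of NAD synthesis, read 28.9, 17.2, 128 and 67.3 FPKM. Both were highest in PBS7. Otud1, a deubiquitinase, read 22.6, 10.4, 8.57 and 51.7 FPKM, highest in PBS8.

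The ranking was stable at the top and loose between neighbours. Of the 25 most abundant members of each library, 23 were shared by all 4, as were 79 of the top 100 and 877 of the top 1000. Among the 25 nuclear genes, the ranges of neighbouring genes overlapped in 21 of 24 pairs and were separate for Acta1 over Tnnt3, Tnnt3 over Aldoa, and Atp2a1 over Eno3. The order of the neighbours was the same in all 4 libraries for 7 pairs. Of the members, 9023 reached 1 FPKM in every library and 652 did not. Just inside the threshold were Fuk at 1.0005, Pygl at 1.0006 and Fbxl22 at 1.0007 FPKM, and just outside were Fam115a at 0.9993, St6galnac3 at 0.9987 and Pck2 at 0.9979 FPKM. Of the protein-coding rows, 5915 were at 0 in all 4 libraries.

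Several genes known to be expressed in this tissue were nearly empty in the table. Those below were named for their low values, and 7.94% to 88.0% of their exon bases are overlapped by other genes in GENCODE M21. Tnnc2, the calcium-binding troponin subunit of fast fibres, partner of Tnnt3 and Tnni2, had 1, 6, 5 and 5 reads (0.0421, 0.337, 0.171 and 0.213 FPKM), and 74.0% of its exon bases are overlapped by Ube2c on the other strand. Cpt1b, the muscle gate of fatty acid entry into mitochondria, read 0.153, 0.353, 0.273 and 0.206 FPKM, and 81.4% of its exon bases are shared with the readthrough gene Gm44502 on the same strand. Mrpl53, of the mitochondrial ribosome, had 0 reads, with 88.0% overlapped. Rpl24, the only cytosolic ribosomal protein below the threshold, had 0, 1, 2 and 1 reads, with 47.0% overlapped. Ndufb2 of complex I read 0.0674, 0.162, 0.137 and 0.328 FPKM with 7.94% overlapped. Over all genes, more than 50% of the exon bases were overlapped in 1.04% of members and 3.21% of protein-coding genes below the threshold. Tnnc2, Cpt1b and Mrpl53 pass this 50% mark, and Rpl24 and Ndufb2 do not. Members well above the threshold pass it too, such as Etfb (58.2%, mean 194 FPKM) and Atn1 (84.2%, mean 20.05 FPKM). The sources used here do not say how reads in shared exons were counted, so these levels are uncertain and the class shares leave these genes out. Among the 100 most abundant members only Ankrd23 (789.8, 1224, 1113 and 1505 FPKM) had such an overlap, 78.2% with Gm42417.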

How the data were processed

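Total RNA of frozen gastrocnemius was purified on columns and read on an Illumina machine, per the labels' protocols. The authors deposited a table of FPKM values per gene, and STAR, TopHat, HTSeq and DESeq2 with the build mm10 are named in the submitters' processing notes, with no role or version; these sources do not give the strand setting or the handling of reads that fit several genes. The deposited FPKM values of the 4 PBS libraries were used as they stand, and reads per gene were recovered from them for depth only. Shares are percentages of the summed FPKM of the members, spreads are SDs or coefficients of variation, and pairs of libraries were compared on log2(FPKM + 0.5). No groups were compared, since only 1 group was described; to find single libraries that stood apart, the gap to the nearest library over the whole range was set against Dixon's critical value for 4 samples. Named genes were the 25 most abundant nuclear genes, the mitochondrial mRNAs, the 10 steadiest and 10 most variable genes at a mean of at least 10 FPKM, and the 3 highest and the lowest members of each list, or any member of a list of up to 15 genes. Some genes that this rule names are not reported here. The members, lists and classes were chosen with earlier results of these data known. Calculations used Python 3.11.15 with numpy 2.4.6 and pandas 2.3.3 and were tested on simulated data. FPKM is a relative measure, so a high share of some genes lowers the values of all others.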

Additional observations from a re-analysis of the deposited data

Results flagged for a closer look

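Of 114 lists, measures and named genes, 9 had a library far from the other 3. Chance flags about 1 in 20, and over all members the share was 4.56%; Acot2, Atf3 and Pdk4 were named for their spread over these libraries, so for them such a gap is only a description. The 10 most abundant genes held 35.1% in PBS4, against 32.9% to 33.2% in the others. PBS7 stood apart in the share of mitochondrially encoded mRNAs (17.8%, others 21.4% to 22.1%), of chaperones (0.731%, others 0.916% to 0.952%) and of the proteasome (0.499%, others 0.472% to 0.474%). For the proteasome this holds for the share only: its summed level in PBS7, 2341 FPKM, lay within the range of the others (2201 to 2359.6 FPKM). With the mitochondrially encoded mRNAs left out, the proteasome share was 0.604% ± 0.00379 over the libraries. PBS5 stood apart in the histone and chromatin share (0.114%, others 0.0955% to 0.0981%), in Acot2 (24.8 FPKM, others 4.74 to 7.72) and in Pdk4 (543 FPKM, others 107 to 147). PBS8 stood apart in the summed immediate early genes (616 FPKM, others 378 to 396) and in Atf3 (30.4 FPKM, others 3.90 to 7.53).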

How the results depend on the processing

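The set held 10900 genes at a mean of at least 0.5 FPKM, 8095 at 2 FPKM and 9023 when every library had to reach 1 FPKM, and 9574 to 9781 when each library was left out in turn. The share of the 10 most abundant genes was 20.6% of fragments instead of FPKM, 28.8% without the mitochondrially encoded mRNAs and 33.1% to 33.8% with a library left out. The mitochondrially encoded share was 12.6% of fragments and 20.3% to 21.7% with a library left out. The share of all classes was 73.2% over all rows of the table, 63.5% of fragments, 68.2% without the mitochondrially encoded mRNAs and 74.1% to 75.2% with a library left out. The median coefficient of variation was 9.67% at a mean of at least 10 FPKM, 19.8% over all protein-coding genes above 0, 11.9% after median-of-ratios scaling, and 10.8% (without PBS4) to 13.002% with a library left out. Of the 29 class shares, 4 stayed within 1 SD when fragments replaced FPKM, which weights genes by length and puts the thick filament (8.18%) above glycolysis (5.51%), and all 29 did with all rows as denominator. Depth limits the low genes most: between 1 and 10 FPKM read counting gave a coefficient of variation of 5.18% at the median. No paired analysis was possible because only 1 group was described.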

Other observations

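The most abundant members in no class were Car3, at 1051, 754, 1926 and 1294 FPKM, and Ndrg2, Chchd10, Aes and Cst3, with means of 879, 829.6, 606 and 478 FPKM. The widest range between libraries was that of Erdr1 on the Y chromosome, at 0.0664, 4.16, 4.07 and 3.10 FPKM from 2, 94, 151 and 92 reads, so that PBS4 lay 62.7-fold below PBS5. It was followed by Wif1, a secreted Wnt inhibitor, with a range of 26.7-fold, high in PBS5 and PBS8. These genes were picked after their values were seen.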
